A study of Mus musculus with 40 samples.

Results

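Elastic fibres give the lung its recoil. A core of cross-linked elastin sits on a scaffold of fibrillin microfibrils, and fibulins and microfibril-associated proteins lie where the core and the scaffold meet. Fibrillin microfibrils also hold latent TGF-β in the matrix, so these genes are read both as structure and as part of growth factor storage in lung fibrosis. The 10 genes described here were chosen by name, as elastin, fibrillins, fibulins, microfibril proteins and Adamtsl2, out of 55536 genes counted in whole left lungs of C57BL/6 mice. They are Eln (elastin), Fbn1 and Fbn2 (fibrillins), Fbln1, Fbln5 and Efemp2 (fibulins, Efemp2 being fibulin-4), Mfap2, Mfap4 and Mfap5 (microfibril-associated proteins), and Adamtsl2 (a secreted fibrillin-binding protein). The choice was made with results of these libraries in view. The fall of Adamtsl2 under saracatinib in saline lungs was among the values already known, so it is given as a description, and so is any difference that contains it. Its other values set against saline lungs with vehicle share those lungs with the known value, so they are descriptions too.

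The study asked what saracatinib, an inhibitor of Src family kinases, does to gene expression in 2 mouse models of lung fibrosis. In the first, lungs received a single dose of 1.5 U/kg bleomycin, a drug that injures the epithelium, or saline, by aspiration through the mouth. In the second, an adenovirus carrying mouse TGF-β1 behind a CMV promoter (Ad-TGFβ1) or an empty vector was given through the nose. Saracatinib at 20 mg/kg or vehicle was given by gavage once a day on days 10 to 27, and lungs were taken on day 28. The 8 groups held 5 libraries each, 40 in all: bleomycin with saracatinib, bleomycin with vehicle, saline with saracatinib, saline with vehicle, Ad-TGFβ1 with saracatinib, Ad-TGFβ1 with vehicle, empty vector with saracatinib, and empty vector with vehicle. The control lungs of the 2 models differ in agent and route at once, so the effect of each cannot be told apart. Levels below are CPM, read counts scaled to the size of the library, set within each model, and the 5 values of a group stand in the order of its replicate numbers.

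Library totals were 8812233 to 17336972 counts. Lung epithelium markers summed to 6200 to 9750 CPM, with none under 1 CPM in any group. Tgfb1 had 252, 279, 223, 139 and 224 CPM in Ad-TGFβ1 lungs with vehicle, against 81.0, 69.4, 69.4, 61.5 and 61.0 CPM in empty vector lungs with vehicle. Within a group, the libraries farthest from their group's centre on the first 2 principal components were replicate 5 of the saline groups with saracatinib and with vehicle, and replicates 5 and 1 of empty vector with vehicle. The labels state that both sexes were studied, while Xist, the RNA of the silenced X chromosome in females, had at most 0.931 CPM in any of the 40 libraries. A score of 11 circadian clock genes separated some groups of equal injury. It ran from -1.76 to -0.794 SD in Ad-TGFβ1 lungs with saracatinib, against -0.228 to 1.09 SD with vehicle, and from -1.45 to 0.419 SD in saline lungs with saracatinib, against 0.807 to 1.96 SD with vehicle. In whole lung RNA, fewer cells of a type and less RNA per cell cannot be told apart.

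**Figure D1:**
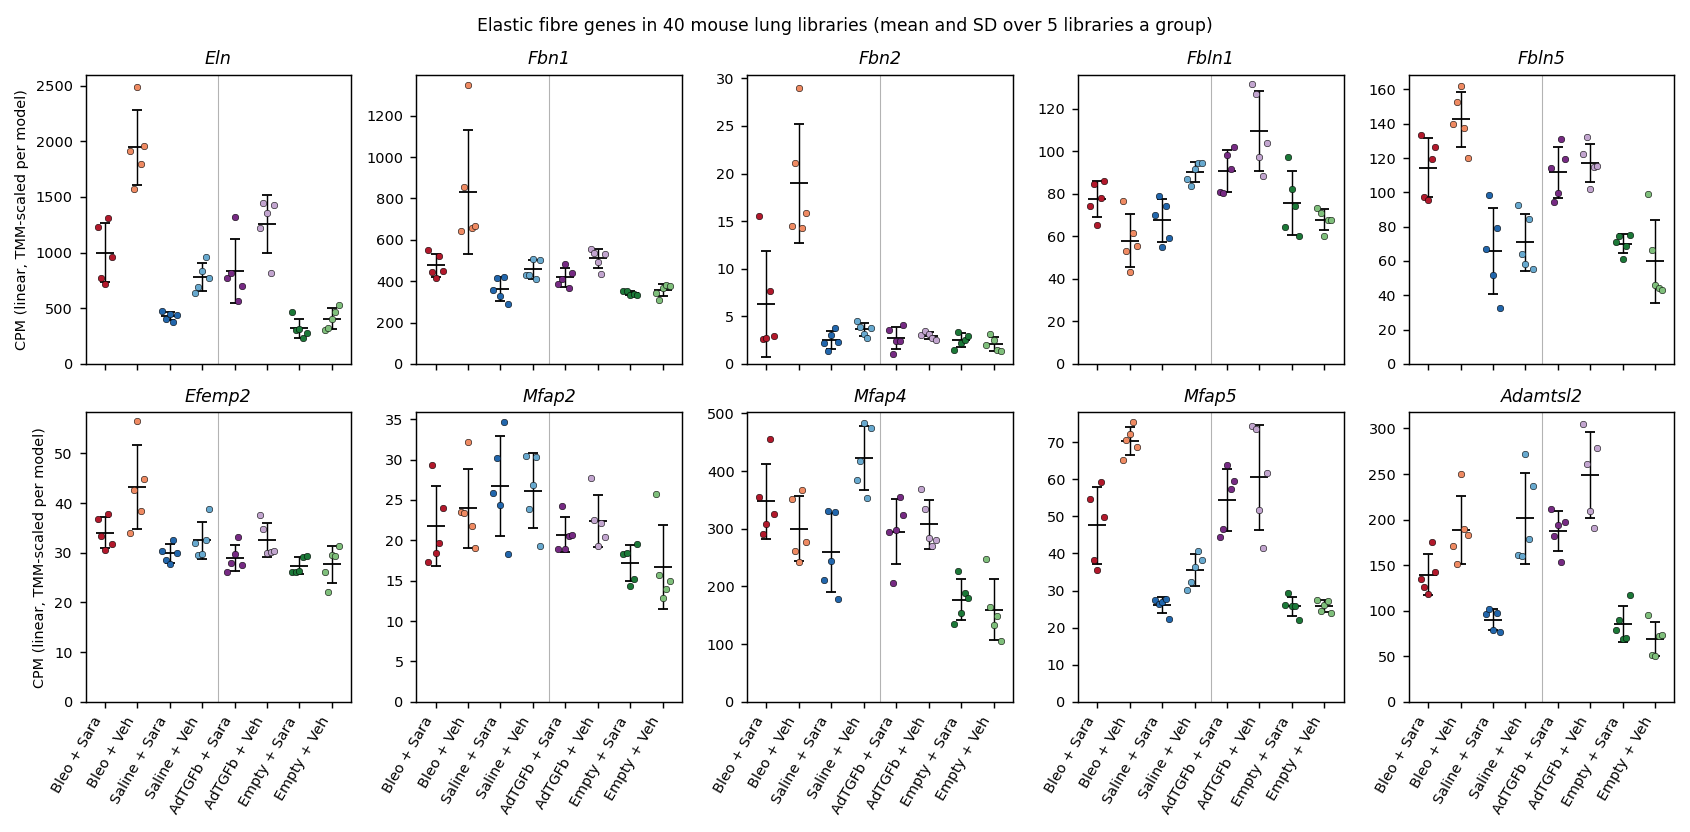
Level of each of the 10 genes in CPM (vertical axis, linear, starting at 0) in the 40 libraries, with 1 point per library and the mean and SD of the 5 libraries of a group in black. Eln, Fbn1, Fbn2, Fbln5, Efemp2 and Mfap5 have their highest group mean in bleomycin lungs with vehicle. The empty vector lungs with vehicle lie below the saline lungs with vehicle for most of the genes.

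Bleomycin was set against saline in vehicle lungs first. Elastin, both fibrillins, Fbln5, Efemp2 and Mfap5 were higher in bleomycin lungs, while Fbln1 and Mfap4 were lower and Mfap2 and Adamtsl2 did not pass the test. That is 8 of 10 genes called at an adjusted p under 0.05 (edgeR quasi-likelihood test, Benjamini-Hochberg over 18846 genes), 6 higher and 2 lower, beside 40.9% of all genes called in this comparison. Of all genes, 20.6% were called higher and 20.3% lower. The median log2 fold change was 0.64 over the 10 genes and -0.03 over all genes tested.

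Eln, the core protein of the fibre, had 1910, 1574, 2486, 1797 and 1954 CPM in bleomycin lungs, against 640, 687, 830, 963 and 772 CPM in saline lungs. The groups did not overlap, and the log2 fold change was 1.32 ± 0.16 (SE; 2.50-fold, edgeR adjusted p = 4.44e-06). Fbn1, the main fibrillin of adult tissue, had 642, 855, 1346, 656 and 665 CPM in bleomycin lungs, against 429.5, 430.5, 508, 412 and 504 CPM in saline lungs. Replicate 3 of the bleomycin lungs was far above its group, and even the lowest bleomycin lung exceeded every saline lung (0.87 ± 0.17, adjusted p = 4.81e-04). Fbn2, a fibrillin used mainly in development, had 14.5, 21.1, 29.0, 14.3 and 15.9 CPM in bleomycin lungs, against 4.54, 3.92, 3.16, 2.75 and 3.76 CPM in saline lungs. Its log2 fold change of 2.38 ± 0.41 (5.21-fold, adjusted p = 1.60e-04) was the largest of the 10, from a level that stayed low.

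Mfap5, a small glycoprotein of microfibrils, had 65.3, 70.7, 72.1, 75.3 and 68.7 CPM in bleomycin lungs, against 30.1, 32.4, 36.5, 40.7 and 38.3 CPM in saline lungs. The groups lay wide apart and the change was 0.99 ± 0.12 (adjusted p = 3.97e-06). Fbln5, which links elastin to cell surface integrins and is needed for elastic fibre assembly, had 140.1, 153, 162, 138 and 120.3 CPM in bleomycin lungs, against 92.7, 63.9, 58.3, 84.5 and 55.1 CPM in saline lungs (1.01 ± 0.21, adjusted p = 8.42e-04). Efemp2, which brings lysyl oxidase to elastin, averaged 43.3 ± 8.5 CPM in bleomycin lungs and 32.5 ± 3.73 CPM in saline lungs (SD, n = 5 each). Its groups overlapped, and the change of 0.41 ± 0.11 passed the test (edgeR adjusted p = 0.00515).

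Fbln1, a fibulin of the matrix around elastin and of basement membranes, went the other way. It had 76.8, 52.9, 43.4, 61.4 and 55.6 CPM in bleomycin lungs, against 87.2, 83.5, 91.6, 94.4 and 94.7 CPM in saline lungs. Every bleomycin lung lay below every saline lung (-0.64 ± 0.12, adjusted p = 4.17e-04). Mfap4, an integrin-binding protein of elastic fibres, had 352, 262, 243, 368 and 277 CPM in bleomycin lungs, against 385, 417, 483, 353 and 474 CPM in saline lungs. Its fall of -0.49 ± 0.17 (adjusted p = 0.0233) rested on groups that overlapped, and it missed the threshold without bleomycin replicate 2 or 3 or without saline replicate 3 or 5 (adjusted p = 0.0603, 0.066, 0.0587 and 0.0589). Mfap2, which binds fibrillin and TGF-β family proteins, averaged 24.0 ± 4.91 CPM in bleomycin lungs and 26.2 ± 4.69 CPM in saline lungs (-0.13 ± 0.18). Adamtsl2 averaged 189 ± 37.1 and 201 ± 50.1 CPM in the same order (SD, n = 5 each), a log2 difference of -0.09 with a 95% interval of -0.40 to 0.21.

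Marker genes of several cell types moved in the same comparison. Of 8 activated fibroblast markers 7 were higher in bleomycin lungs, with summed levels of 915 to 2470 CPM against 468 to 646 CPM in saline lungs. All 8 alveolar fibroblast markers were lower, with sums of 5080 to 6460 CPM against 8940 to 11000 CPM, and 5 of 8 smooth muscle markers were lower. With the clock score as a covariate, Efemp2 (0.27, edgeR adjusted p = 0.19) and Mfap4 (-0.32, adjusted p = 0.33) were not called. The score ran from -1.41 to 0.472 SD in bleomycin lungs and from 0.807 to 1.96 SD in saline lungs. These ranges do not overlap, so that fit cannot separate the score from bleomycin and nothing is read from the lost calls. Adventitial fibroblast markers had 1 of 8 higher and 5 lower, leukocyte markers 3 of 5 higher, heart muscle markers 4 of 6 lower, lung epithelium 1 of 7 higher and 2 lower, mesothelium 2 of 7 lower and endothelium 1 of 5 lower. Cartilage had 2 of 7 tested, 1 higher and 1 lower. The part of these cell types in the results was not tested.

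**Figure D2:**
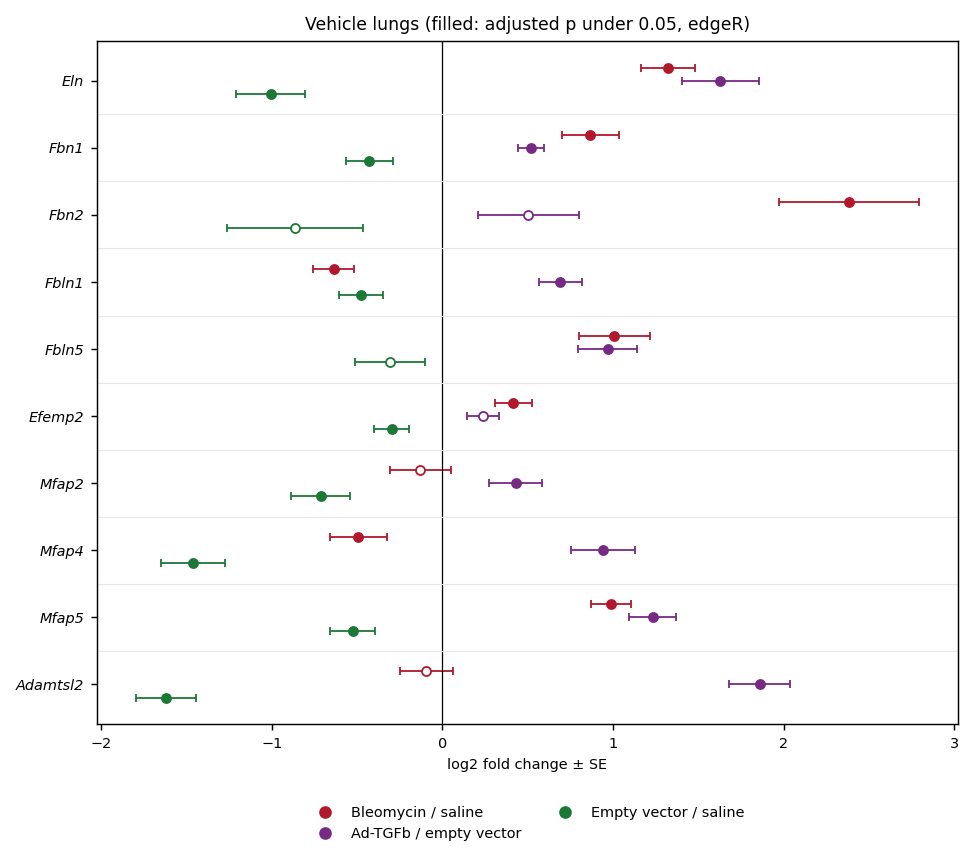
Log2 fold change with its SE (horizontal axis) of each gene in 3 comparisons of vehicle lungs, with filled points for an edgeR adjusted p under 0.05. The filled point of Adamtsl2 for empty vector over saline is a description. Fbln1 and Mfap4 lie below 0 for bleomycin over saline and above 0 for Ad-TGFβ1 over empty vector, and all 10 genes lie below 0 for empty vector over saline.

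Saracatinib was then set against vehicle within bleomycin lungs. The elastin core and the fibrillins were lower with the drug, together with Efemp2 and Mfap5, and Fbln1 was higher. Of the 10 genes 6 were called, 1 higher and 5 lower, beside 14% of all 18846 genes, 5.31% higher and 8.71% lower. The median log2 fold change was -0.39 over the 10 genes and 0.01 over all genes. The comparison uses the same bleomycin lungs with vehicle as the one above, so the 2 sets of changes are not independent.

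Eln had 1233, 773, 717, 1314 and 965 CPM in bleomycin lungs with saracatinib, against the 1574 to 2486 CPM given above with vehicle. All 5 treated lungs lay below all 5 vehicle lungs (-0.96 ± 0.16, 0.515-fold, edgeR adjusted p = 0.00213). Fbn1 had 549, 444, 417, 523 and 449 CPM with saracatinib, against 642 to 1346 CPM with vehicle, again without overlap (-0.81 ± 0.17, adjusted p = 0.0051). Mfap5 had 54.6, 38.2, 35.6, 59.4 and 49.9 CPM with saracatinib, all below the vehicle lungs (-0.57 ± 0.12, adjusted p = 0.00462).

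Fbn2 was uneven among the treated lungs. It had 15.6, 2.59, 2.77, 7.64 and 2.89 CPM with saracatinib, against 14.3 to 29.0 CPM with vehicle. Treated replicates 2, 3 and 5 were at the level of saline lungs while replicate 1 was within the vehicle range (-1.59 ± 0.39, edgeR adjusted p = 0.0112). Leaving out each library in turn moved the value between -2.26 and -1.39, and it was called in all 10 such fits. Efemp2 averaged 34.1 ± 3.1 CPM with saracatinib and 43.3 ± 8.5 CPM with vehicle (SD, n = 5 each; -0.35 ± 0.11, edgeR adjusted p = 0.0388). Efemp2 missed the threshold without any 1 of 6 libraries, bleomycin with vehicle replicates 2, 3 and 5 and with saracatinib replicates 2, 3 and 5 (adjusted p 0.0606 to 0.137). It also did so with no low-count filter, with voom weights, with only these groups fitted and with the clock score (0.0513, 0.0672, 0.0841 and 0.0573).

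Fbln1 had 74.3, 84.8, 65.3, 78.3 and 85.9 CPM with saracatinib, against 76.8, 52.9, 43.4, 61.4 and 55.6 CPM with vehicle. Only the vehicle lung replicate 1 reached the treated range, and the rise was 0.42 ± 0.12 (adjusted p = 0.0267). It missed the threshold with only these groups fitted (adjusted p = 0.0586) and without vehicle replicate 2 or 3 or saracatinib replicate 2 or 5 (0.0693, 0.0853, 0.0719 and 0.0631). Adamtsl2 was at 139 ± 22.4 CPM with saracatinib and 189 ± 37.1 CPM with vehicle (SD, n = 5 each; -0.44 ± 0.16, edgeR adjusted p = 0.0656). It was called by DESeq2 and without saracatinib replicate 4 (adjusted p = 0.043 and 0.035). Fbln5, Mfap2 and Mfap4 had log2 differences of -0.32, -0.14 and 0.21, with 95% intervals that include 0. Of the activated fibroblast markers 7 of 8 were lower with the drug, with sums of 511 to 717 CPM against 915 to 2470 CPM with vehicle, and 5 of 8 alveolar fibroblast markers were higher. Their part in the fall of the fibre genes was not tested.

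In saline lungs none of the other 9 genes was called for saracatinib against vehicle by edgeR, beside 0.00531% of all 18846 genes, which is 1 gene, Adamtsl2. Nothing is read from that share, since the choice of the 10 used this value. A count of 1401 genes had an unadjusted p under 0.05, and DESeq2 and limma voom with quality weights called 52 and 9 genes. Adamtsl2 had 96.6, 102, 79.0, 97.2 and 76.2 CPM in saline lungs with saracatinib, against 161, 159.8, 271.5, 178 and 236.5 CPM in saline lungs with vehicle. The groups lay apart, and the log2 difference was -1.16 with a 95% interval of -1.47 to -0.85. Eln had 475.5, 401, 448, 379 and 438 CPM with saracatinib, against 640, 687, 830, 963 and 772 CPM with vehicle, a difference of -0.86 ± 0.16 that edgeR did not call (adjusted p = 0.0985). DESeq2, voom and the fit with no low-count filter called it (adjusted p = 3.75e-04, 0.0202 and 0.0434).

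In the same comparison Fbln1 differed by -0.42 ± 0.12 and Mfap5 by -0.44 ± 0.12, and edgeR called neither (adjusted p = 0.394 and 0.336). Mfap4 had 212, 331, 245, 328 and 178.5 CPM with saracatinib, against 385, 417, 483, 353 and 474 CPM with vehicle (-0.71 ± 0.17, edgeR adjusted p = 0.303; DESeq2 adjusted p = 0.0202). Circadian genes stood apart in the same lungs. Nr1d1, a clock repressor, had 128 to 197 CPM with saracatinib and 66.7 to 102 CPM with vehicle, and Arntl, a clock activator, had 51 to 67.7 and 74.1 to 93.1 CPM in the same order. With the clock score as a covariate the Adamtsl2 difference was -1.24, while the score's ranges in the 2 groups did not overlap. It was -1.11 without saracatinib replicate 3 and -1.04 without the 2 most distant libraries of the model. Summed alveolar fibroblast markers ran from 5970 to 9840 CPM in saline lungs with saracatinib and from 8940 to 11000 CPM with vehicle, and summed activated fibroblast markers from 323 to 580 CPM and from 468 to 646 CPM in the same order. Their part in these values was not tested.

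The difference between the drug's effect in bleomycin lungs and in saline lungs was called for 1 of the 10 genes, beside 1.06% of all genes. It was Fbln1, whose log2 difference with saracatinib was 0.42 in bleomycin lungs and -0.42 in saline lungs (difference 0.84 ± 0.17, edgeR adjusted p = 0.0303). That call was lost in 9 of 20 fits without 1 library, without the 2 most distant libraries of the model (0.78, adjusted p = 0.0811) and with the clock score (0.74, adjusted p = 0.207). The score's ranges in the 2 saline groups did not overlap, so the last fit cannot separate the score from the drug. Mfap4 missed the threshold (0.92 ± 0.24, adjusted p = 0.0605). It was called by DESeq2 (adjusted p = 0.0118), and by edgeR without saline with saracatinib replicate 4 or bleomycin with vehicle replicate 1 and with all 40 libraries fitted (0.0384, 0.0429 and 0.0352). Fbn2 differed by -1.04 and was not called, but was without bleomycin with saracatinib replicate 1 (-1.71, adjusted p = 0.0478). Adamtsl2 differed by 0.72 with a 95% interval of 0.29 to 1.15, a description that contains its difference in saline lungs. Eln differed by -0.10 with a 95% interval of -0.53 to 0.34, so its effects in the 2 kinds of lung were not told apart at this spread.

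RefSeq promoter windows are shown for Adamtsl2 and Fbln1, described above in saline lungs and in the difference between bleomycin and saline lungs. Each runs from 250 bases before to 50 bases after a start on GRCm38.p6 and is written 5′ to 3′ along the gene. The capitals mark TATAAA, the TATA box.
Adamtsl2, chr2:27079129-27079428, plus strand: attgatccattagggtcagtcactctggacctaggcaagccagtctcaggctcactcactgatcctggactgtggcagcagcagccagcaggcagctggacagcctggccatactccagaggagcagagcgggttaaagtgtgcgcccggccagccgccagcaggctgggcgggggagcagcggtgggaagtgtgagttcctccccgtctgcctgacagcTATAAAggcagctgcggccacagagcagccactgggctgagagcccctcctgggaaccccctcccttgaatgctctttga
Fbln1, chr15:85205699-85205998, plus strand: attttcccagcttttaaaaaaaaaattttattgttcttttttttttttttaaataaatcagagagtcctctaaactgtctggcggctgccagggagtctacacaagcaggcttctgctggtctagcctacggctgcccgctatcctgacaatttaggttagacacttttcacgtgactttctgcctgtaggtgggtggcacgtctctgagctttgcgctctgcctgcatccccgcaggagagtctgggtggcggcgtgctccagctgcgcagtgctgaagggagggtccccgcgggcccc
The TATAAA of Adamtsl2 begins 30 bases before the start, and the Fbln1 window holds none. Windows were present for 6 of the 10 genes, 11 windows in all, and only Adamtsl2 had the letters, which 13.62% of all 32851 windows hold on either strand. TGANTCA (AP-1) was in none of the 11 windows and in 7.81% of all windows, GGAATG (TEAD) was in 1 window of Mfap2 and in 14.66% of all windows, and GTCTAGAC (the SMAD palindrome) was in none of the 11 and in 0.21% of all windows. Eln, Fbn2, Mfap4 and Mfap5 had no entry.

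Bleomycin lungs with saracatinib were also set against saline lungs with vehicle. Of the 10 genes 3 were called, 2 higher and 1 lower, beside 9.22% of all genes. Fbln5 was at 114 ± 17.2 CPM in bleomycin lungs with saracatinib and 70.9 ± 16.7 CPM in saline lungs with vehicle (SD, n = 5 each; 0.69 ± 0.21, edgeR adjusted p = 0.0422). Mfap5 was 0.42 ± 0.12 higher (edgeR adjusted p = 0.0294). Adamtsl2, the lower gene, was at -0.53 ± 0.16, a description because its known value used the same saline lungs with vehicle. Eln was at 0.36 ± 0.16 (adjusted p = 0.161) and Fbn1 at 0.06 ± 0.17, each a log2 difference with a 95% interval reaching 0.67 and 0.39 at its upper end. Without 1 library the count ran from 0 to 3, with 0 called without bleomycin with saracatinib replicate 1 or 5 or saline with vehicle replicate 3, and with the clock score it was 0. The score ran from -1.23 to 0.799 SD in bleomycin lungs with saracatinib, below every saline lung with vehicle, so that fit cannot separate score from group.

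In the second model Ad-TGFβ1 was set against empty vector in vehicle lungs. No gene of the 10 was lower, and 8 were called higher, beside 25.8% of all 18834 genes called, 11.5% higher and 14.3% lower. Adamtsl2 and Eln had the largest changes, followed by Mfap5, Fbln5, Mfap4, Fbln1, Fbn1 and Mfap2. The median log2 fold change was 0.82 over the 10 genes and -0.01 over all genes.

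Adamtsl2 had 305, 261, 209.6, 191 and 278 CPM in Ad-TGFβ1 lungs, against 95.5, 51.4, 50.1, 71.9 and 73.7 CPM in empty vector lungs. The lowest Ad-TGFβ1 lung was well above the highest empty vector lung (1.86 ± 0.18, 3.63-fold, edgeR adjusted p = 9.63e-06). Eln had 1224, 1445, 1359, 813 and 1426 CPM in Ad-TGFβ1 lungs, against 309, 324, 402, 468 and 526 CPM in empty vector lungs. Ad-TGFβ1 replicate 4 stood below the other 4 of its group and was also the lowest of them in Tgfb1, and the groups did not overlap (1.63 ± 0.23, 3.09-fold, adjusted p = 2.32e-04). Mfap5 had 74.5, 73.5, 51.7, 41.5 and 61.7 CPM in Ad-TGFβ1 lungs, against 27.3, 24.4, 26.1, 27.3 and 23.9 CPM in empty vector lungs (1.23 ± 0.14, adjusted p = 2.88e-05).

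Fbln1 had 132, 127, 97.2, 88.2 and 104 CPM in Ad-TGFβ1 lungs, against 73.3, 71.1, 59.9, 67.6 and 67.5 CPM in empty vector lungs (0.69 ± 0.12, adjusted p = 0.00107). Mfap4 had 369, 334, 284, 270.5 and 279.7 CPM in Ad-TGFβ1 lungs, against 247, 165, 133, 148.5 and 106 CPM in empty vector lungs (0.94 ± 0.19, adjusted p = 0.00169). Both were thus higher after Ad-TGFβ1 and lower after bleomycin, each against its own control. Fbln5 had 122.5, 132, 102, 115 and 115 CPM in Ad-TGFβ1 lungs, against 99.2, 66.6, 46.1, 44.0 and 43.2 CPM in empty vector lungs (0.97 ± 0.17, adjusted p = 0.00107). Fbn1 averaged 510 ± 47 CPM in Ad-TGFβ1 lungs and 356 ± 28.8 CPM in empty vector lungs (SD, n = 5 each; 0.52 ± 0.08, edgeR adjusted p = 4.06e-04).

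The fibrillins had similar log2 fold changes, but Fbn2 had the wider error and only Fbn1 was called. Fbn2 was at 2.96 ± 0.389 CPM in Ad-TGFβ1 lungs and 2.08 ± 0.763 CPM in empty vector lungs (SD, n = 5 each), 0.50 ± 0.29 on the log2 scale and not called (edgeR adjusted p = 0.219). Efemp2 differed by 0.24 ± 0.09 and missed the threshold (adjusted p = 0.0636). It was called by DESeq2, without Ad-TGFβ1 replicate 3 or 4, without empty vector replicate 5 and without the 2 most distant libraries (adjusted p 0.0429 to 0.0468). Mfap2, at 22.4 ± 3.23 CPM against 16.6 ± 5.2 CPM, was called at 0.43 ± 0.15 (adjusted p = 0.0471), a call lost without any 1 of 8 libraries, Ad-TGFβ1 replicates 1, 2, 4 and 5 and empty vector replicates 2 to 5 (adjusted p 0.0554 to 0.149). It was also lost with no low-count filter, with DESeq2 size factors, with only these groups fitted and with the clock score (0.0675, 0.0508, 0.117 and 0.0787). In the same comparison 7 of 8 smooth muscle markers were lower, with sums of 449 to 981 CPM in Ad-TGFβ1 lungs against 669 to 1650 CPM in empty vector lungs. Of 7 activated fibroblast markers tested 3 were higher, with sums of 434 to 606 CPM against 234 to 483 CPM, and 4 of 5 leukocyte markers were higher, with sums of 471 to 528 CPM against 200 to 392 CPM. Their part in these results was not tested.

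The 2 control groups were not at the same level. Empty vector lungs with vehicle had lower levels of 8 of the 10 genes than saline lungs with vehicle, and none was higher, beside 26.2% of all 19529 genes called in a fit of all 40 libraries. Of all genes, 12.3% were called lower and 13.9% higher. Adamtsl2, 1 of the 8, was at 68.5 ± 18.7 CPM in empty vector lungs and 201 ± 50.1 CPM in saline lungs (SD, n = 5 each; -1.62 ± 0.18). That is a description, because its known value used the same saline lungs with vehicle. Mfap4 was at 160 ± 53.3 and 422 ± 55.9 CPM in the same order (-1.46 ± 0.19, edgeR adjusted p = 1.20e-06). Eln (-1.01), Mfap2 (-0.72), Mfap5 (-0.53), Fbln1 (-0.48), Fbn1 (-0.43) and Efemp2 (-0.30) were called too. The Efemp2 call was lost without empty vector replicate 2 or saline replicate 4 or 5, with voom, with only these groups fitted and without the distant libraries (edgeR or voom adjusted p 0.0524 to 0.113), and the Fbn1 call was lost without the distant libraries (adjusted p = 0.0658). Fbln5, at -0.31 in the fit of all libraries, was called without empty vector replicate 1 (-0.60, edgeR adjusted p = 0.0173), without the distant libraries (-0.59) and with voom (-0.53), and Fbn2, at -0.86, was called with only these groups fitted. All 6 heart muscle markers were higher in empty vector lungs, with sums of 148 to 1520 CPM against 127 to 371 CPM in saline lungs, and 7 of 8 alveolar fibroblast markers were lower. Of 8 activated fibroblast markers 1 was higher and 3 were lower, with sums of 234 to 483 CPM in empty vector lungs against 468 to 646 CPM in saline lungs, and 3 of 5 leukocyte markers were higher, with sums of 200 to 392 CPM against 138 to 211 CPM. The part of these cell types in the results was not tested. Agent, route and model differ together between these groups and cannot be told apart.

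With saline lungs with vehicle as the control, a comparison added after the data were seen, Ad-TGFβ1 lungs had 4 of the 10 genes called, 3 higher and 1 lower, beside 43% of all genes called. Eln (0.64 ± 0.20, edgeR adjusted p = 0.00955), Fbln5 (0.67 ± 0.20, adjusted p = 0.007) and Mfap5 (0.72 ± 0.13, adjusted p = 3.73e-05) were higher against either control. Mfap4 turned round, at -0.51 ± 0.18 (adjusted p = 0.0247), and Mfap2 was at -0.27 ± 0.17 and not called. Adamtsl2 (0.26 ± 0.17), Fbln1 (0.23 ± 0.13) and Fbn1 (0.11 ± 0.14) were not called against saline lungs. Mean levels of Adamtsl2 were 249 ± 47.7 CPM in Ad-TGFβ1 lungs, 68.5 ± 18.7 CPM in empty vector lungs and 201 ± 50.1 CPM in saline lungs.

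The injury effects of the 2 models were set against each other, each relative to its own control. The difference was called for 4 of the 10 genes, beside 15.1% of all genes. Fbn2 rose more with bleomycin (difference 1.89 ± 0.54, edgeR adjusted p = 0.0151), while Fbln1 (-1.33 ± 0.18, adjusted p = 4.86e-06) and Mfap4 (-1.43 ± 0.26, adjusted p = 2.60e-04) differed the other way. Adamtsl2 did so too, at -1.95 ± 0.25, a description because its known value used the same saline lungs with vehicle. Eln (-0.30), Fbln5 (0.05), Mfap5 (-0.24), Fbn1 (0.35) and Efemp2 (0.18) had 95% intervals that include 0. Mfap2 differed by -0.55 and was not called (adjusted p = 0.129), but was without empty vector with vehicle replicate 1 (-0.79, adjusted p = 0.0112), without the distant libraries (-0.88) and with voom (-0.88). The lower controls of the adenovirus model enter these differences, and their part was not tested.

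Saracatinib in Ad-TGFβ1 lungs had 0 of the 10 genes called, beside 0.0903% of all genes (17 of 18834, edgeR; 1649 had an unadjusted p under 0.05). DESeq2 called 0 of the 10, and voom with quality weights called Fbn1. Eln had 769, 817, 1320, 562 and 701 CPM with saracatinib, against 1224, 1445, 1359, 813 and 1426 CPM with vehicle. Treated replicate 3 was among the vehicle values and the other 4 were near or below the lowest vehicle lung (-0.59 ± 0.22, edgeR adjusted p = 0.461). With the clock score in the fit the Eln difference was -0.08, but the score's ranges in the 2 groups did not overlap. That fit cannot separate the score from the drug, so nothing is read from the smaller value. Fbn1 had 387, 412, 483, 367.5 and 440.2 CPM with saracatinib, against 553, 538.5, 491, 436 and 529.6 CPM with vehicle (-0.29 ± 0.08, edgeR adjusted p = 0.3; voom adjusted p = 0.0454). Adamtsl2 was at 188 ± 22 CPM with saracatinib and 249 ± 47.7 CPM with vehicle (-0.41 ± 0.17, edgeR adjusted p = 0.513). Of 11 clock genes 4 were called higher and 1 lower with the drug in these lungs, among them Dbp (1.92 ± 0.31, edgeR adjusted p = 0.0238) and Arntl (-1.02 ± 0.18, adjusted p = 0.034). Tgfb1, which the vector also carries, was at 159 ± 24.2 CPM with saracatinib and 223 ± 52.4 CPM with vehicle (SD, n = 5 each). Reads of the vector and of the mouse's own gene were not told apart.

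In empty vector lungs saracatinib also had 0 of the 10 genes called, beside 0.00531% of all genes (1 gene by edgeR, 7 by DESeq2, and 2084 with an unadjusted p under 0.05). All 10 log2 differences lay between -0.35 for Eln and 0.31 for Adamtsl2. The count over all genes moved with the libraries used. Without empty vector with vehicle replicate 1, 1112 genes were called, Fbln5 among them (0.50, edgeR adjusted p = 0.0308). Without the 2 most distant libraries of the model, that replicate and replicate 5 of its group, 130 genes were called. Replicate 1 had the highest Adamtsl2, Fbln1, Fbln5, Mfap2 and Mfap4 of its group. The difference between the drug's effects in Ad-TGFβ1 and empty vector lungs was called for 0 of the 10 and 0% of all genes by edgeR, with 1933 at an unadjusted p under 0.05 and 1 gene called by DESeq2. Without empty vector with vehicle replicate 1 it was called for 1190 genes, Fbln5 (-0.57) and Adamtsl2 (-0.88) among them (edgeR adjusted p = 0.0467 and 0.0333).

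**Figure D3:**
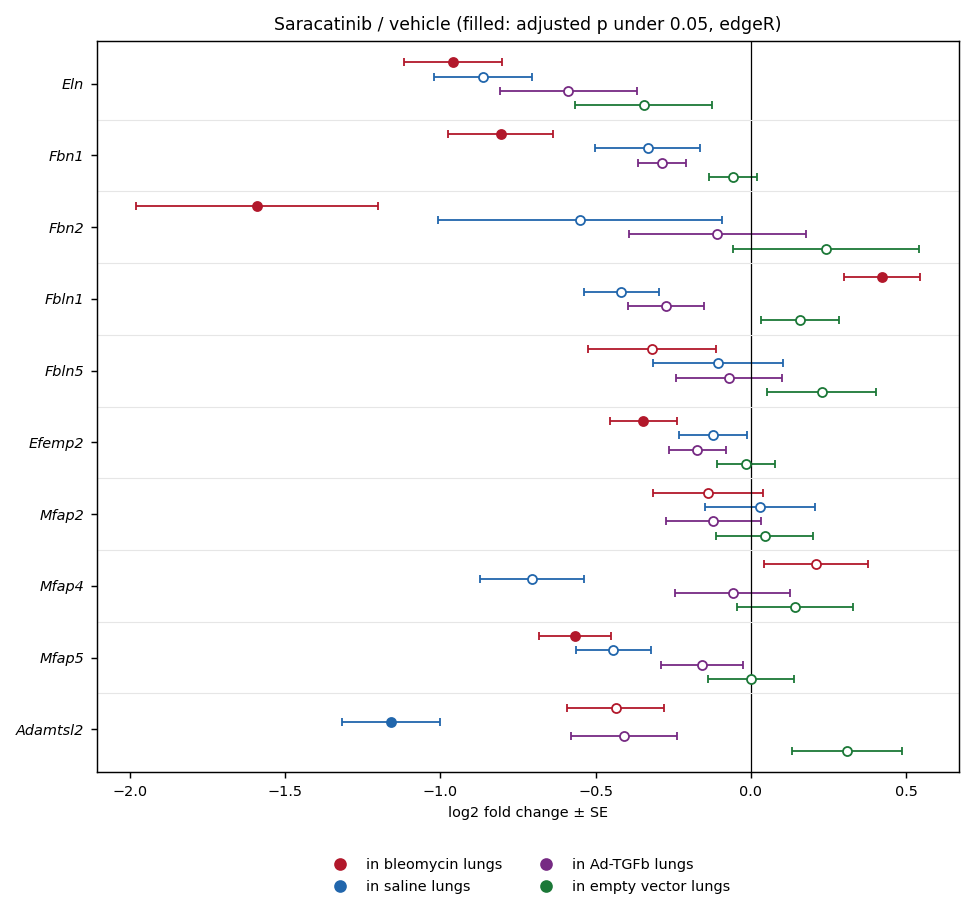
Log2 fold change with its SE (horizontal axis) for saracatinib over vehicle in each of the 4 kinds of lung, with filled points for an edgeR adjusted p under 0.05; the filled point of Adamtsl2 in saline lungs is a description. Eln lies below 0 in all 4, at -0.96, -0.86, -0.59 and -0.35 from bleomycin to empty vector lungs, and Fbln1 lies above 0 in bleomycin lungs (0.42) and below 0 in saline lungs (-0.42).

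The drug's effect in bleomycin lungs was tested against that in Ad-TGFβ1 lungs directly. Fbln1 was called, 1 of the 10 beside 2.46% of all genes (difference 0.70 ± 0.18, edgeR adjusted p = 0.0342). The call was lost in 7 of 20 fits without 1 library (adjusted p 0.0556 to 0.0923). Eln (-0.37), Fbn1 (-0.52), Fbn2 (-1.49) and Mfap5 (-0.40) were not called, at adjusted p = 0.561, 0.145, 0.118 and 0.244. So the fall of elastin and Fbn1 in bleomycin lungs was not shown to differ from the values in Ad-TGFβ1 lungs. The Fbn2 difference was called without bleomycin with saracatinib replicate 1 (-2.15, edgeR adjusted p = 0.00605) and with voom (-1.78, adjusted p = 0.0169). Ad-TGFβ1 lungs with saracatinib, set against empty vector lungs with vehicle, had 7 of the 10 called higher, beside 14% of all genes. Adamtsl2 was 1.45 ± 0.18 higher, Mfap5 1.08 ± 0.14 and Eln 1.04 ± 0.22 (edgeR adjusted p = 2.06e-04, 2.12e-04 and 0.00708). Fbn1 was called at 0.23 ± 0.08 and Fbln1 at 0.42 ± 0.12 (edgeR adjusted p = 0.0496 and 0.0312). The Fbn1 call was lost without any 1 of 8 libraries, Ad-TGFβ1 with saracatinib replicates 1, 2, 3 and 5 and empty vector with vehicle replicates 2 to 5 (adjusted p 0.0504 to 0.16), and the Fbln1 call without any 1 of 6, Ad-TGFβ1 with saracatinib replicates 3 to 5 and empty vector with vehicle replicates 3 to 5 (0.0598 to 0.0801). Mfap2, at 0.31 and not called, was called without empty vector with vehicle replicate 1 (0.53, adjusted p = 0.00221). With the clock score in that fit none of the 10 and 30 of all genes were called. The score ran from -1.76 to -0.794 SD in the Ad-TGFβ1 lungs with saracatinib and from 0.415 to 1.08 SD in the empty vector lungs with vehicle. That fit therefore cannot separate score from group.

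The genes differ widely in level, which was compared per length of exons (RPKM). In bleomycin lungs with vehicle Eln was highest at 240 ± 41.6 RPKM, followed by Mfap4 at 156 ± 29.1 and Fbn1 at 68.7 ± 24.7 RPKM. In saline lungs with vehicle Mfap4 came first at 220 ± 29.1 RPKM and Eln second at 96.1 ± 15.7 RPKM. In Ad-TGFβ1 lungs with vehicle Mfap4 at 160 ± 21.9 RPKM and Eln at 155 ± 32.3 RPKM did not differ beyond their spread, and in empty vector lungs with vehicle they were at 83.2 ± 27.7 and 50.1 ± 11.4 RPKM in the same order (SD, n = 5 each). Fbn2 was last in all 4, at 1.43 ± 0.473 RPKM in bleomycin lungs, 0.275 ± 0.0526 in saline lungs, 0.224 ± 0.0295 in Ad-TGFβ1 lungs and 0.157 ± 0.0578 RPKM in empty vector lungs. Between these ends Adamtsl2, Mfap2, Fbln1, Fbln5, Mfap5 and Efemp2 lay between 7.19 and 31.1 RPKM, and many neighbours in that order overlapped.

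Exons of 5 of the genes share bases with a gene on the opposite strand, and the sources used here do not state how strand was handled in the counting. Fbn1 shares 2442 of 12128 exon bases with Gm9913, Eln 267 of 8098 with Gm30003, Efemp2 173 of 3788 with Mus81, Fbn2 129 of 13215 with Gm26507 and Mfap4 89 of 1922 with Mapk7. The genes lie on 9 chromosomes. In GRCm38 coordinates Eln is at chr5:134702593-134747323, Fbn1 at chr2:125300594-125507993, Fbln1 at chr15:85205949-85286535, Fbln5 at chr12:101746565-101819055 and Adamtsl2 at chr2:27079379-27108981.

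Similarity of pattern was measured as the root mean square difference of group mean log2 CPM over the 8 groups, each gene centred on its own mean. The gene closest to Eln was Ltbp2, an elastic fibre protein of the latent TGF-β binding protein family, at 0.24. Nrcam at 0.27 and Tfpi2 at 0.29 followed. Fbn1 was closest to Col3a1, a fibrillar collagen, at 0.09, then Galnt17 and Chsy3 at 0.10 each. Mfap4 was closest to Spon1 (0.19), Egfem1 (0.20) and Postn (0.21), and Adamtsl2 to Robo2 (0.26), Lilra5 (0.27) and Mgp (0.28), the last a calcification inhibitor of matrix. Fbn2 was nearest to Mt2, a metallothionein (0.21), Fn1, fibronectin (0.23) and Thbs2, a thrombospondin (0.25), and this gene was added after the values were seen. Among the 10 themselves the nearest pair was Fbln5 and Mfap5 at 0.16. These are descriptions over 8 group means that share their libraries.

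Partners of the fibre were read from lists of related genes. Cross-linking enzymes join elastin into an insoluble polymer. Of 6, 4 were higher in bleomycin lungs than in saline lungs, led by Loxl2 (1.15), Loxl4 (0.89) and Loxl3 (0.86), and 4 were lower with saracatinib in bleomycin lungs, led by Loxl2 (-1.29), Lox (-0.85) and Loxl3 (-0.83). In Ad-TGFβ1 lungs 4 of 6 were higher than in empty vector lungs, led by Lox (1.19), Loxl1 (0.70) and Tgm2 (0.64). Loxl2 and Loxl3 were not called in the adenovirus model, at 0.16 ± 0.11 and 0.23 ± 0.11. Against saline lungs, 5 of the 6 enzymes were lower in empty vector lungs.

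The latent TGF-β binding proteins are a family listed here as partners of fibrillin, and their RNA levels do not measure stored growth factor. Ltbp2 was higher in bleomycin lungs (1.75 ± 0.17, edgeR adjusted p = 7.43e-07) and in Ad-TGFβ1 lungs (1.67 ± 0.15, adjusted p = 4.73e-06) and lower with saracatinib in bleomycin lungs (-0.84 ± 0.17, adjusted p = 0.00409). Ltbp4, which helps Fbln5 onto microfibrils, was lower in bleomycin lungs (-1.26 ± 0.15, adjusted p = 3.99e-06) and higher with saracatinib in them (0.67 ± 0.15, adjusted p = 0.00695). Of the 4 genes of this list, 2 were higher and 1 lower with bleomycin, 2 were higher with Ad-TGFβ1, and all 4 were lower in empty vector lungs than in saline lungs.

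Of 17 tested among 18 genes listed as other fibulins, microfibril and elastin interface proteins, 9 were higher and 4 lower in bleomycin lungs. The list includes Mfap1a, Mfap3 and Mfap3l, whose place in microfibrils was not checked. Fbln7 (2.02), Emilin2 (1.28) and Vcan (1.26) rose most, and Tnxb (-2.02), Efemp1 (-1.18) and Hmcn1 (-0.74) fell most. With saracatinib in bleomycin lungs 2 were higher, Tnxb (1.28) and Efemp1 (0.65), and 6 were lower, led by Fbln2 (-1.46), Vcan (-1.38) and Emilin2 (-1.09). In Ad-TGFβ1 lungs 8 were higher, led by Bgn (1.03), Emilin2 (0.75) and Vcan (0.58), and Thsd4 (-0.55) and Dcn (-0.45) were lower. Of 9 other ADAMTS-like proteins and ADAMTS proteases, 3 were higher and 4 lower in bleomycin lungs, with Adamts19 (1.10) and Adamts17 (-1.89) at the ends. Adamts17, whose loss in humans disturbs fibrillin, was 1.17 higher with saracatinib in bleomycin lungs, where 4 were higher and 1, Adamts6 (-0.41), was lower. In Ad-TGFβ1 lungs 2 were higher and 1 lower.

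Of 11 elastin-degrading proteases 8 were tested in each model. In bleomycin lungs 6 were higher, led by the macrophage elastase Mmp12 (4.43), Ctss (2.82) and Ctsk (2.44), and Mmp9 was lower (-0.80). In Ad-TGFβ1 lungs 6 were higher, led by Mmp12 (2.24), Ctss (1.61) and Mmp2 (1.22). With saracatinib in bleomycin lungs 4 were lower, led by Ctsk (-0.98), Ctss (-0.95) and Mmp14 (-0.93), while Mmp12 was at -0.33 ± 0.29 and not called. Of 10 elastase inhibitors 5 were tested, and Timp1, which blocks matrix metalloproteinases, was 3.19 higher in bleomycin lungs and fell by 2.15 on the log2 scale with saracatinib in them. Timp1, Timp3 and Cst3 were higher in both models.

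Of 11 receptors and surface partners 9 were higher in bleomycin lungs, led by Lgals3 (1.52), Itgb6 (1.34), a subunit of the integrin that frees latent TGF-β, and Ctsa (1.07), and Itga8 was lower (-1.26). With saracatinib in bleomycin lungs 7 were lower, led by Itgav (-0.59), Itgb3 (-0.55) and Itga5 (-0.53), and Itga8 was higher (0.71). In Ad-TGFβ1 lungs 6 were higher, led by Itgb6 (1.13), Lgals3 (0.91) and Itgb5 (0.52). For saracatinib in Ad-TGFβ1 lungs no gene of any of these lists was called by edgeR. The background shares of called genes are those given above for each comparison, and nothing here sets these lists apart from other genes.

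**Figure D4:**
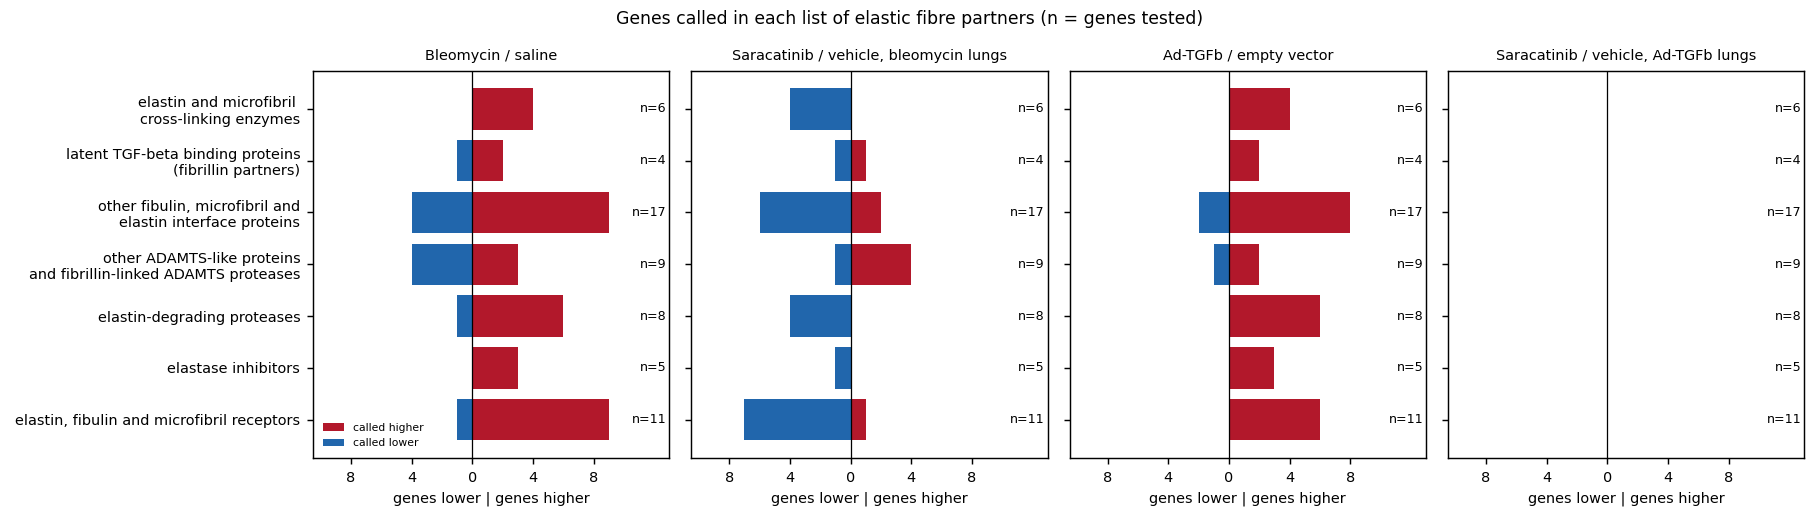
Number of genes called lower (left of 0) and higher (right of 0) in each list of elastic fibre partners in 4 comparisons, with the number tested at the right. Cross-linking enzymes have 4 of 6 higher with bleomycin and 4 of 6 lower with saracatinib in bleomycin lungs, and no bar appears for saracatinib in Ad-TGFβ1 lungs.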

How the data were processed

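RNA of whole left lungs was sequenced in 40 libraries. The deposited values used here are raw counts per gene, 1 table for each model, made by the authors with tools that the submitters' processing notes name as STAR 2.6.1d, Picard, Subread 1.6.3, featureCounts and edgeR. The notes name mm9 and GRCm38, with no role for either. All 55536 identifiers of the tables matched GENCODE M21 (GRCm38). The sources used here do not state how strand was handled in the counting. Per the labels' protocols, a stranded kit was used. The normalized tables were not used.

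The members, the lists of related genes, the cell type markers and the clock genes were chosen with earlier results of these data known. Named list genes were up to 3 called genes per list and direction with the largest change and a mean of at least 1 CPM, and similar genes were the nearest 3.

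Genes were kept by filterByExpr, scaled by TMM and tested with edgeR 4.0.16 (quasi-likelihood, 1 coefficient per group, R 4.3.3). Comparisons within a model used its 20 libraries, and those between models all 40. P-values were adjusted by Benjamini-Hochberg over all genes tested, with calls under 0.05. SE is the log2 fold change over the square root of F, and 95% intervals are 1.96 SE. Members passed the filter in all 13 comparisons, 10 of 10. Cross-model CPM values were scaled within each model. The clock score is the mean log2 CPM of 3 genes minus that of 8, in SD within a model.

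Replicate numbers follow accession order and pair nothing. The labels do not say more of the libraries' separateness than 5 replicates per condition, so p-values measure the spread between libraries. The fits were tested on simulated counts. For bleomycin against saline they recovered 56.6% of genes changed 1.5-fold and 64.6% of those changed 2-fold. For Ad-TGFβ1 against empty vector they recovered 43.9% and 76%, with 8 false calls in each. The simulations changed 99 of 18630 genes at each fold for bleomycin, and 98 and 100 of 18674 for Ad-TGFβ1. The real comparisons called 40.9% and 25.8% of all genes, so these rates are not the power of the real tests. Not every changed gene was recovered, so a gene not called may still differ. Alternatives were DESeq2 1.42.0 and its size factors in edgeR, limma 3.58.1 voom with quality weights, no low-count filter, only the groups compared, all 40 libraries, and leaving out each library. A further 3 alternatives were chosen after seeing the data: leaving out the 2 most distant libraries of each model, saline lungs as the Ad-TGFβ1 control, and the clock score as a covariate.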

Additional observations from a re-analysis of the deposited data

Results flagged for a closer look

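Of the 80 sets of 5 libraries (10 genes in 8 groups), 3 held a library far from the other 4 on a log2 scale by Dixon's test, which flags about 1 in 20 sets by chance. Eln had 812.7 CPM in Ad-TGFβ1 with vehicle replicate 4, where the other 4 had 1220 to 1450 CPM. Mfap2 had 25.76 CPM in empty vector with vehicle replicate 1, where the other 4 had 12.9 to 15.6 CPM. Mfap5 had 22.28 CPM in saline with saracatinib replicate 5, where the other 4 had 26.3 to 27.7 CPM.

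The remaining values are differences between effects that passed edgeR's test. For Fbln1 the drug's effect was higher in bleomycin lungs than in saline lungs by 0.84 on the log2 scale, and higher in bleomycin lungs than in Ad-TGFβ1 lungs by 0.70. These calls held in 11 of 20 and 13 of 20 fits without 1 library. The effect of bleomycin minus that of Ad-TGFβ1 was 1.89 for Fbn2, -1.33 for Fbln1, -1.43 for Mfap4 and -1.95 for Adamtsl2, the last a description. The lower empty vector controls enter these differences, as given above.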

How the results depend on the processing

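Leaving out 1 library at a time gave 7 to 8 of the 10 genes called for bleomycin against saline, 4 to 7 for saracatinib in bleomycin lungs, 7 to 9 for Ad-TGFβ1 against empty vector, 7 to 9 for empty vector against saline, 5 to 8 for Ad-TGFβ1 with saracatinib and 4 to 5 for the difference between the injuries. The other ranges were 0 to 1 in saline lungs, 0 to 2 for the drug by bleomycin interaction, 0 to 3 for bleomycin with saracatinib against saline with vehicle, 0 to 1 in empty vector lungs, 0 to 2 for the drug by Ad-TGFβ1 interaction and 0 to 2 for the drug's effect between the models. Counts for saracatinib in saline lungs and for the bleomycin interaction include Adamtsl2, whose value was known at the choice, and are descriptions. Adamtsl2 is also a description wherever saline lungs with vehicle enter a count. Saracatinib in saline lungs had 1 of the 10 called, and 2 with no low-count filter, 3 with DESeq2, 2 with voom, and 0 with only the groups compared, without the 2 distant libraries or with the clock score. The bleomycin interaction had 1, and 3 with DESeq2, 2 with all 40 libraries, and 0 without the distant libraries or with the clock score. Voom gave 1 for saracatinib in Ad-TGFβ1 lungs, 1 for the Ad-TGFβ1 interaction and 2 for the drug's effect between the models. With the clock score, 0 were called for bleomycin with saracatinib against saline with vehicle (main 3) and 0 for Ad-TGFβ1 with saracatinib against empty vector with vehicle (main 7). In both, the score's ranges in the groups compared did not overlap, so the fit cannot separate score from group. The same holds for bleomycin against saline and for saracatinib in saline and in Ad-TGFβ1 lungs, and it enters the bleomycin interaction. With saline lungs as control Ad-TGFβ1 had 4 called (main 8), and Mfap2 (-0.27) and Mfap4 (-0.51) were reversed. The causes were not tested.

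Counts over all genes moved more. Saracatinib in bleomycin lungs had 2643 called and 1326 to 2985 without 1 library. The bleomycin interaction had 199, and 35 to 583 without 1 library, 838 with DESeq2, 415 with voom, 956 with all 40 libraries, 46 without the distant libraries and 0 with the clock score. Bleomycin against saline had 7716, and 4789 with the clock score. Ad-TGFβ1 with saracatinib against empty vector with vehicle had 2641, and 1278 to 5195 without 1 library, 5083 with voom, 1044 with only those groups and 30 with the clock score. Bleomycin with saracatinib against saline with vehicle had 1737, 1009 to 1802 without 1 library and 3326 with voom. Saracatinib in Ad-TGFβ1 lungs had 17, 0 to 14 without 1 library, 51 with DESeq2, 101 with voom and 0 with the clock score. The Ad-TGFβ1 interaction had 0, and 413 with voom and 254 without the distant libraries. Saracatinib in empty vector lungs had 1, and 130 without them. The drug's effect between the models had 481, and 106 to 803 without 1 library, 219 with no filter, 766 with DESeq2 and 753 without the distant libraries. Ad-TGFβ1 against saline lungs had 8389 (4865 against empty vector), the difference between the injuries 4756 with voom (2951), and empty vector against saline 3132 with only those groups (5123). No paired analysis was possible because replicate numbers follow accession order only. A sign that changed for a gene called in neither fit counts as moved, which happened to 43 values of a gene in a comparison without 1 library, 9 with the clock score, 4 with voom, 2 without the distant libraries, 2 with saline lungs as control and 1 with no filter. At these depths Fbn2 has the fewest counts and the widest errors of the 10.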
